A study of Homo sapiens with 54 samples.

Results

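The regions described here are the POLR3A-bound regions that were listed after 1 h of the synthetic progestin R5020 and had no counterpart after vehicle. POLR3A is the largest subunit of RNA polymerase III. The members were chosen by the measured peak lists themselves: a region of the R5020 POLR3A list on chromosomes 1 to 22 or X was taken if it shared no base with any region of the vehicle POLR3A list, and the stretch of chr21 from 8150001 to 8500000 was left out. This gave 413 members of 969 R5020 regions (42.6%), and the other 556 were shared with vehicle. On the same chromosomes the vehicle list held 655 regions, of which 100 had no counterpart with R5020. The lists differ in length: with the 655 regions of highest -log10 q taken from each, 150 R5020 regions had no counterpart in place of 413.

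The study profiled chromatin by ChIP-seq in T47D, an established human breast cancer line that carries estrogen and progesterone receptors. All cells were treated for 1 h, either with ethanol vehicle or with R5020, with no other agent named. Each of 8 antibodies (PR, Maf1, Brf1, H3K27Ac, POLR3A, POLR3C, POLR3G and POLR3GL) has 3 libraries per treatment, and 6 further libraries are inputs. For each antibody and treatment there is 1 list of regions that combines its libraries, so the values below have no replicate error, no difference between treatments could be tested, and the sequencing depth behind each list is unknown. T47D is 1 line, and nothing in the labels says whether the 3 libraries came from separate cultures. For 4 libraries the title and the treatment tag disagree: replicate 1 of POLR3GL, replicate 1 of POLR3G and replicates 1 and 2 of POLR3C are R5020 by title and vehicle by tag. What is said of those antibodies by treatment rests on the titles, and none of the 4 is a POLR3A library. As a check on the labelled cell type, H3K27Ac, a mark of active promoters and enhancers, lay at 10 of 10 luminal marker genes in vehicle and at 9 of 10 with R5020, TFF1 being the exception. It lay at 2 and 3 of 5 basal or mesenchymal markers (vehicle and R5020), 2 and 2 of 3 fibroblast markers and 2 and 1 of 3 leukocyte markers. The basal keratin genes KRT5 and KRT14 and the leukocyte gene PTPRC had none under either treatment.

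RNA polymerase III transcribes short non-coding RNAs, among them tRNAs, 5S ribosomal RNA, U6, 7SK and Y RNAs. At tRNA genes it is recruited through A and B boxes that lie inside the transcribed gene: the factor TFIIIC reads these boxes and places TFIIIB, whose subunit Brf1 contacts the polymerase. Maf1 is a conserved repressor that binds the polymerase and Brf1 and limits its output. The progesterone receptor (PR) is a ligand-activated transcription factor that R5020 switches on. POLR3C is a further core subunit, and POLR3G and POLR3GL are paralogous subunits of which the polymerase holds 1 at a time.

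Few members lay where reference sequence was at hand. The 3 printed here lay at a tRNA gene, a tandem repeat and a subtelomeric pseudogene with a microRNA, and they do not stand for the members as a whole. All sequences are RefSeq's for GRCh38.p14, printed 5′ to 3′. The first window, chr14:20653172-20653471 on the plus strand, runs from 250 bases before to 50 after the start of LOC124903281. Its capitals mark the 50 bases inside the member chr14:20653059-20653221.
LOC124903281 window: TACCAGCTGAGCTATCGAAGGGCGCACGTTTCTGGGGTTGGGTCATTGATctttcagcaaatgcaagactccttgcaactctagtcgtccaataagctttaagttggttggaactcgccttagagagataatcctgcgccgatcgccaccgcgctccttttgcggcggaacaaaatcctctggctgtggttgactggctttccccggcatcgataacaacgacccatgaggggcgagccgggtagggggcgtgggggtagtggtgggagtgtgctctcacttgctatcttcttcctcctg
The first 21 bases, chr14:20653172-20653192, belong to the tRNA-Tyr gene TRY-GTA5-3. Read on the opposite strand they hold 1 match to the A box, in capitals.
TRY-GTA5-3, minus strand: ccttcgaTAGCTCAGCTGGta
An A box match on either strand was present in 526 of 35116 promoter windows of the same length (1.50%). The match is a description of the letters and not of a bound site.

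The second window, chr7:63752098-63752397 on the plus strand, lies at the start of LOC124901645, and its last 106 bases, in capitals, lie in the member chr7:63752292-63752494.
LOC124901645 window: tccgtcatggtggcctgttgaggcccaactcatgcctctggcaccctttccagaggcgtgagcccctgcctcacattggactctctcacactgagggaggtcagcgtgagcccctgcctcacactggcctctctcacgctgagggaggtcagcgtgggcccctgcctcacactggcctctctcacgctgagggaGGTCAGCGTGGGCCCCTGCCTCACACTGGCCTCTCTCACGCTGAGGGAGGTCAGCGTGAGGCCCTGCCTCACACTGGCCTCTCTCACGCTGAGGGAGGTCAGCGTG
This window repeats with a period of 48 bases: 81.3% of its bases equal the base 48 positions on. Among the 35116 promoter windows, 61 (0.174%) reached a share as high at any period of 10 to 100 bases. The member there had a fold of 2.46 and a -log10 q of 1.90 and overlapped none of the other R5020 lists. Neither window held the B box core GTTCGANNC (on either strand in 0.829% of all promoter windows) or the PR element ACANNNTGT (5.37%). The chr14 window holds only 21 bases of TRY-GTA5-3, so it could not show whether that gene has a B box or a terminator. The letters of the termination signal, TTTT (71.4%), were found 2 times in the chr14 window, outside those 21 bases, and 0 times in the chr7 window.

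The third sequence is the mature microRNA of MIR8078, chr18:112266-112288 on the minus strand, with its seed (bases 2 to 8) in capitals.
hsa-miR-8078: gGUCUAGGcccggugagagacuc
Its hairpin, chr18:112256-112339, lies whole inside the member chr18:112191-112464. That member had a fold of 1.95 and a -log10 q of 13.3, overlapped Maf1 and Brf1 regions of the R5020 lists, and lies over ROCK1P1, a transcribed pseudogene near the chr18 end. It belongs to a cluster of 6 members, of which 4 lie over ROCK1P1.

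By the authors' own values, the members were weak. The fold of a region is its enrichment as the peak caller gave it, and -log10 q is the caller's adjusted significance on a log10 scale. Both are the authors' and serve here only to describe and rank regions within a list. Members had folds from 1.40 to 8.96 with a median of 2.08 (quartiles 1.70 and 2.95), while the shared regions ran from 1.69 to 71.4 with a median of 18.5. The vehicle-only regions had folds from 1.54 to 13.2 and a median of 4.08. Those folds come from the vehicle list and are not ranked against the R5020 ones. A fold of at least 5 was reached by 23 members (5.57%) and by 484 shared regions (87.1%). A fold under 2 was held by 191 members (46.2%), and no member passed the median of the shared regions. In the plot of fold against -log10 q the members fill the lower left, and the 2 sets overlap at folds from 1.69 to 8.96.

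**Figure D1:**
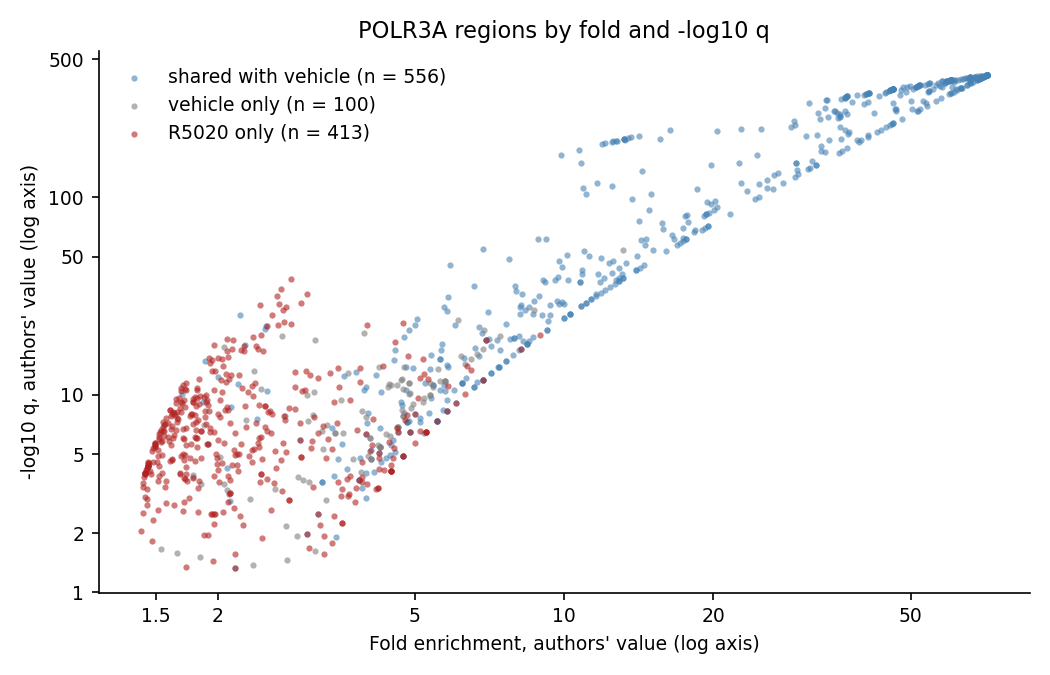
Fold enrichment (x, log axis) and -log10 q (y, log axis) of each POLR3A region, both the authors' values, 1 point per region. The 413 members sit at folds of 1.40 to 8.96, and the 556 shared regions reach 71.4.

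The -log10 q of the members ran from 1.33 to 38.4 with a median of 6.11, against 116 for the shared regions, and 155 members were under 5. Their median width was 199 bp (135 to 1748), against 392 bp for the shared regions. Of the members, 34 had a fold and -log10 q that another member held exactly, the largest group being 4 regions at a fold of 1.43 and a -log10 q of 4.03. The member closest to a vehicle region, at chr10:133747211-133747427 over DUX4L11, had a fold of 3.49. It directly adjoined that region, a distance of 1 bp with no base between them. The next were 78 bp away (chr1:228635448-228635624, in the 5S array, fold 2.16) and 135 bp away (chr1:161447514-161447713, at TRG-TCC2-2, fold 4.31). Just outside the rule were R5020 regions that shared 52 bp and 53 bp with vehicle regions over DUX4L12 (folds 3.96 and 2.17) and 102 bp at RNU6-4P within SOX2-OT (fold 4.68). In all, 23 members had a vehicle region within 1 kb and 50 within 10 kb, and 182 had none within 1 Mb.

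The members lay mostly away from the genes that the polymerase is known to transcribe. Among all R5020 POLR3A regions, 35.1% lay within 200 bp of a tRNA gene or another gene of the polymerase III list. Of the members, 7 did (1.69%, 95% Wilson interval 0.823 to 3.46%), against 333 shared regions (59.9%). These intervals, here and below, cover the counting of regions only. Of 421 tRNA genes, 352 were at shared regions, 7 at members and 7 at vehicle-only regions. Of the 38 other polymerase III genes found (such as those of 5S rRNA, U6, 7SK, Y and vault RNAs), 37 were at shared regions and 0 at members. Pseudogenes of such genes added 6 members, so 13 members lay at a polymerase III gene or a copy of one.

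The 7 tRNA members decode 7 amino acids: glutamine, histidine, glycine, aspartate, tyrosine, lysine and alanine. TRQ-CTG4-2 lay in chr1:143691413-143691594 with a fold of 4.90, and its region overlapped an R5020 Brf1 region. TRH-GTG1-2 lay in chr1:147073146-147073362 with a fold of 5.31. TRG-TCC2-2 and TRD-GTC2-5 belong to a tRNA gene group on chr1, in chr1:161447514-161447713 (fold 4.31) and chr1:161470357-161470546 (fold 3.87). Both are close to other polymerase III regions, with vehicle regions 135 bp and 498 bp away.

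TRY-GTA5-3, whose first bases are printed above, had a fold of 5.27 and a -log10 q of 6.52. TRK-CTT6-1 lay in chr18:46089277-46089459 within ATP5F1A, the gene of an ATP synthase subunit, with the highest fold of the 7, 5.53. It also overlapped an H3K27Ac region with R5020 and none with vehicle. TRA-AGC12-3 lay in chr6:57856278-57856513 with a fold of 4.48. None of the 7 overlapped PR or Maf1 with either treatment. Their folds, 3.87 to 5.53 with a median of 4.90, sit at the low end of the 297 shared tRNA regions (3.61 to 71.4, median 45.5): only 8 of those 297 were below the highest of the 7. Of the 297, 94 overlapped an R5020 PR region, 77 Maf1 and 253 Brf1.

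The 6 members at pseudogenes included 3 of the 5 members with the highest fold. RNU6-33P, a U6 copy within HERC3, had a fold of 8.17 (chr4:88684797-88684983). RN7SKP176, a 7SK copy within PLCG2, had 6.96 (chr16:81961857-81962057), and RN7SKP230, a further 7SK copy within MAN2A1, had 6.85 (chr5:109699669-109699820). These 3 overlapped none of the other antibodies' lists under either treatment. The other 3 were RNA5SP506 within EDA (fold 5.27), TRE-CTC15-1 (4.48) and RNA5SP74 (5.84, chr1:204562345-204562561), and of the 6 only the last overlapped PR.

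Each R5020 region was placed in the first of 7 settings that applied, a division made after the values were seen. Near a gene means within 10 kb for DUX4-family and REXO1L genes and within 2 kb for the 5S array, and near a stretch means within 2 Mb. As the bars by setting show, 226 members lay near a longest gene-free stretch, 28 near DUX4-family genes, 28 near REXO1L genes, 12 in the 5S rRNA gene array, 7 at polymerase III genes, 6 at pseudogenes of them and 106 elsewhere. For the shared regions the counts in the same order were 11, 6, 0, 3, 333, 37 and 166.

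**Figure D2:**
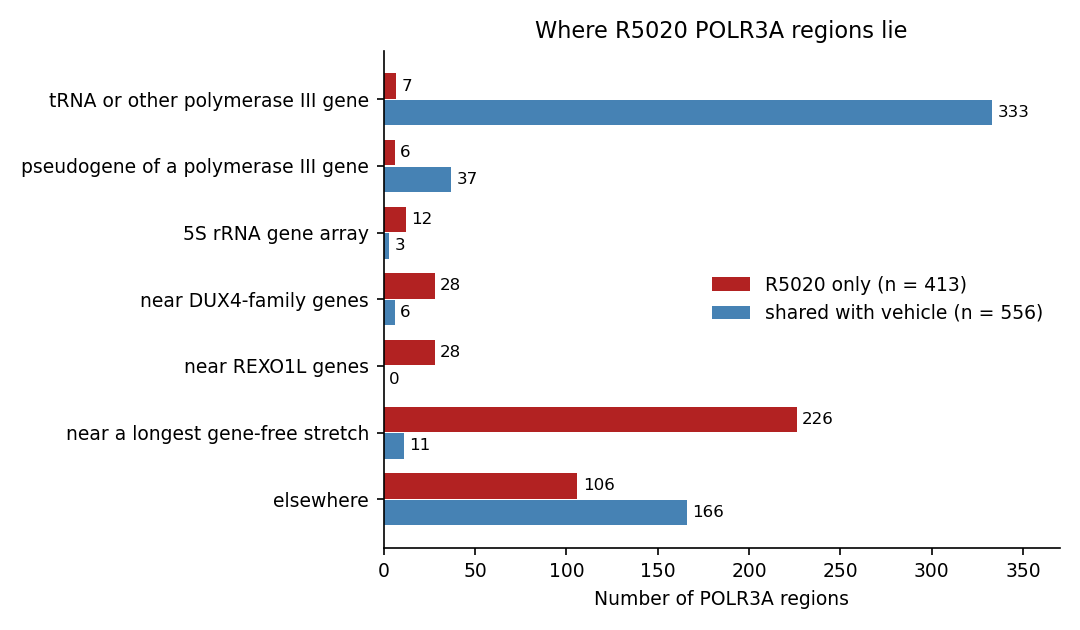
Number of POLR3A regions of the R5020 list (x) in each of 7 settings (y), for the 413 members and the 556 regions shared with vehicle. The bars for polymerase III genes (7 and 333) and for the gene-free stretches (226 and 11) differ most.

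A gene-free stretch is here the longest interval of a chromosome without any RefSeq gene. On most chromosomes this interval surrounds the centromere, where DNA is made of satellite repeats with many near-identical copies. Within 2 Mb of these stretches lay 229 members (55.4%, interval 50.6 to 60.2%), 24 shared regions (4.32%) and 26 of the 100 vehicle-only regions, with 26.1% over all 969. More than 100 kb from any gene lay 130 members (31.5%, interval 27.2 to 36.1%) and 6 shared regions (1.08%), with 14.0% over all. A gene lay under 107 members (25.9%) and 457 shared regions (82.2%), and the median distance of a member to a gene was 40255 bp. The bodies of protein-coding genes held 48 members (11.6%), 96 shared regions (17.3%) and 23 of the 100 vehicle-only regions. Of the members, 20 (4.84%) were within 1 kb of an end of such a gene, against 82 shared regions (14.7%). Chromosomes 1, 4, 10, 16 and 8 held 246 members (59.6%) and 168 shared regions (30.2%).

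The 226 members placed at the gene-free stretches had a median fold of 1.80 (1.40 to 8.96) and a median -log10 q of 6.55. Brf1 overlapped 169 of them with R5020 (74.8%, interval 68.7 to 80.0%, 64.5% over all) and 0 with vehicle (34.8% over all). Maf1 overlapped 22 (9.73%), H3K27Ac 24 and PR 0, which allows a share of up to 1.67% by the Wilson interval. Over all R5020 regions the shares were 23.3% for Maf1, 32.3% for H3K27Ac and 18.2% for PR. All 10 members with the highest -log10 q except 1 lay more than 100 kb from a gene, and all 10 overlapped an R5020 Brf1 region. The first of them, chr17:25569161-25569329, had a fold of 2.82 and a -log10 q of 38.4, 1412363 bp from the nearest gene. The next 3 were also on chr17, at chr17:25920133-25920293, chr17:23068753-23068887 and chr17:25383718-25383864, with folds of 2.68, 3.03 and 2.63. The exception, chr10:133753661-133753845 over DUX4L13, had a fold of 2.95 and a -log10 q of 29.3. The member with the highest fold of all, 8.96, was chr6:61322938-61323136, 219534 bp from KHDRBS2, and it too overlapped Brf1.

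Other lists were not alike in these stretches. POLR3A had 51 of 655 regions there with vehicle (7.79%) and 253 of 969 with R5020. Of these 253, 229 are members, which have no vehicle counterpart by the rule. Brf1 had 16 of 361 (4.43%) and 279 of 1070 (26.1%). POLR3C went the other way, with 128 of 666 (19.2%) and 102 of 693 (14.7%). For PR the shares were 2.44% of 6605 and 2.17% of 173078 regions, for Maf1 2.18% of 3026 and 2.43% of 22590, and for H3K27Ac 1.67% and 1.77%. The folds there were low: medians of 1.84 for POLR3A and 2.11 for Brf1 with R5020, against 5.40 and 5.01 over the whole of each list.

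**Figure D3:**
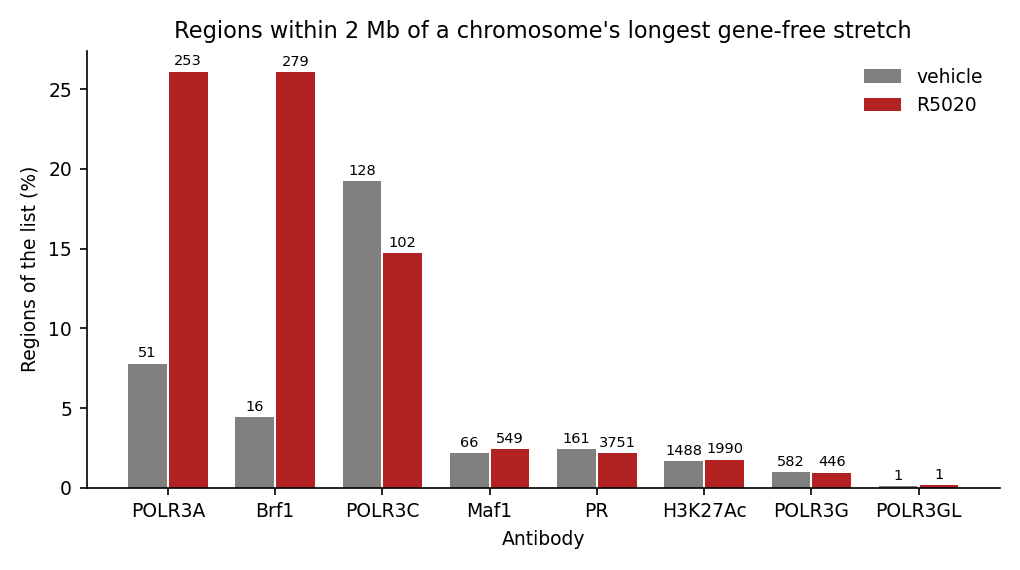
Regions within 2 Mb of the longest gene-free stretch of their chromosome, in percent of each list (y), for each antibody (x) and treatment; the number above a bar is the count of regions. POLR3A went from 51 to 253 regions, 229 of the 253 being members, and Brf1 from 16 to 279, while POLR3C went from 128 to 102.

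Most members had another member nearby, as most shared regions had another shared region. Chained within 100 kb of each other, 301 members (72.9%) fell into 39 clusters, and 13 clusters of 10 or more held 217 (52.5%), leaving 112 solitary members. Of the shared regions, 331 (59.5%) had another shared region within 100 kb, and of the vehicle-only regions 24 of 100. Each set was chained within itself, so these shares depend on its size. They have no share over all R5020 regions beside them and show nothing particular to members. Members in clusters had lower folds than solitary ones, with a median of 1.85 against 3.68. Their median -log10 q was higher, 6.34 against 5.38. Brf1 was at 196 clustered members (65.1%) and 28 solitary ones (25.0%), with 64.5% over all R5020 POLR3A regions. H3K27Ac was at 47 (15.6%) and 39 (34.8%), with 32.3% over all. The clustered Brf1 share and the solitary H3K27Ac share were thus near those over all. The intervals given here count each neighbour in a cluster as a separate region, although neighbours may not be independent, so they may be too narrow.

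The cluster with the most members was on chr1, 143185124 to 143264752, inside the gene-free stretch: 31 members in 79.6 kb, with folds of 1.44 to 1.71. All 31 overlapped R5020 Brf1 regions. In its span the POLR3A list had 0 regions with vehicle and 31 with R5020, which are the 31 members themselves. The Brf1 list went from 0 to 44, while Maf1 had 0 under both. A second cluster, on chr4 from 49091821 to 49154591, held 30 members (folds 1.51 to 2.21), with Brf1 at 27 and Maf1 at 7. Clusters of 17 and 10 members on chr16, 16 on chr5, 15 on chr10, 12 on chr20, 10 on chr2 inside the immunoglobulin kappa locus and 10 more on chr4 were alike in 1 respect: 0 vehicle regions of POLR3A and of Brf1 in their spans. Brf1 was at all 17 and all 10 of the chr16 members, and at 4 of 12 on chr20.

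The gene-bearing clusters had other combinations. REXO1L is a family of exonuclease-like genes and pseudogenes in a tandem array on chr8. The cluster from 85656310 to 85828543 held 29 members (folds 1.73 to 2.96), of which 24 overlapped Maf1, 10 POLR3C and 5 Brf1. In its span Maf1 went from 12 regions with vehicle to 45 with R5020, POLR3A from 1 to 29 and POLR3C from 44 to 45. Maf1 rather than Brf1 was thus the usual partner there: of the 28 members near REXO1L genes, 23 had Maf1 and 5 had Brf1. H3K27Ac and PR were at 0 of the 28 under either treatment.

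DUX4 is a homeobox gene held in each unit of the D4Z4 repeat, which is arrayed near the ends of chr4 and chr10 and is normally silenced in somatic cells. Members overlapped 17 of the 47 DUX4-family genes of the annotation. The chr10 cluster, 133667549 to 133763798, held 15 members (folds 1.82 to 5.18), of which 12 overlapped Brf1, 12 Maf1 and 13 H3K27Ac. POLR3A went from 5 to 20 regions there, Brf1 from 0 to 14 and Maf1 from 4 to 17. The chr4 cluster, 190022058 to 190181195, reached DUX4 itself and held 10 members, with Brf1 at 6, Maf1 at 5 and H3K27Ac at 5; its H3K27Ac regions numbered 11 with vehicle and 21 with R5020. Near DUX4-family genes as a whole, 19 of 28 members overlapped each of Brf1, Maf1 and H3K27Ac with R5020, and 0, 2 and 15 did with vehicle.

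The 5S rRNA genes lie in tandem on chr1. All 17 annotated RNA5S genes had a shared region within 200 bp, and none of the 12 members of the array lay within 200 bp of one. Of these members, 10 lay between the first and the last RNA5S gene, and 2 lay before RNA5S1. Of the 10, chr1:228645216-228645456 also lay over RHOU and DUSP5P1. Their folds were 2.05 to 3.50. POLR3G was at 11 of the 12, POLR3C at 10, H3K27Ac at 7, Brf1 at 6 and Maf1 at 1, and POLR3G and POLR3C were there with vehicle too, at 12 and 10. POLR3A had 21 regions in the span with vehicle and 31 with R5020, and Brf1 17 and 26.

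**Figure D4:**
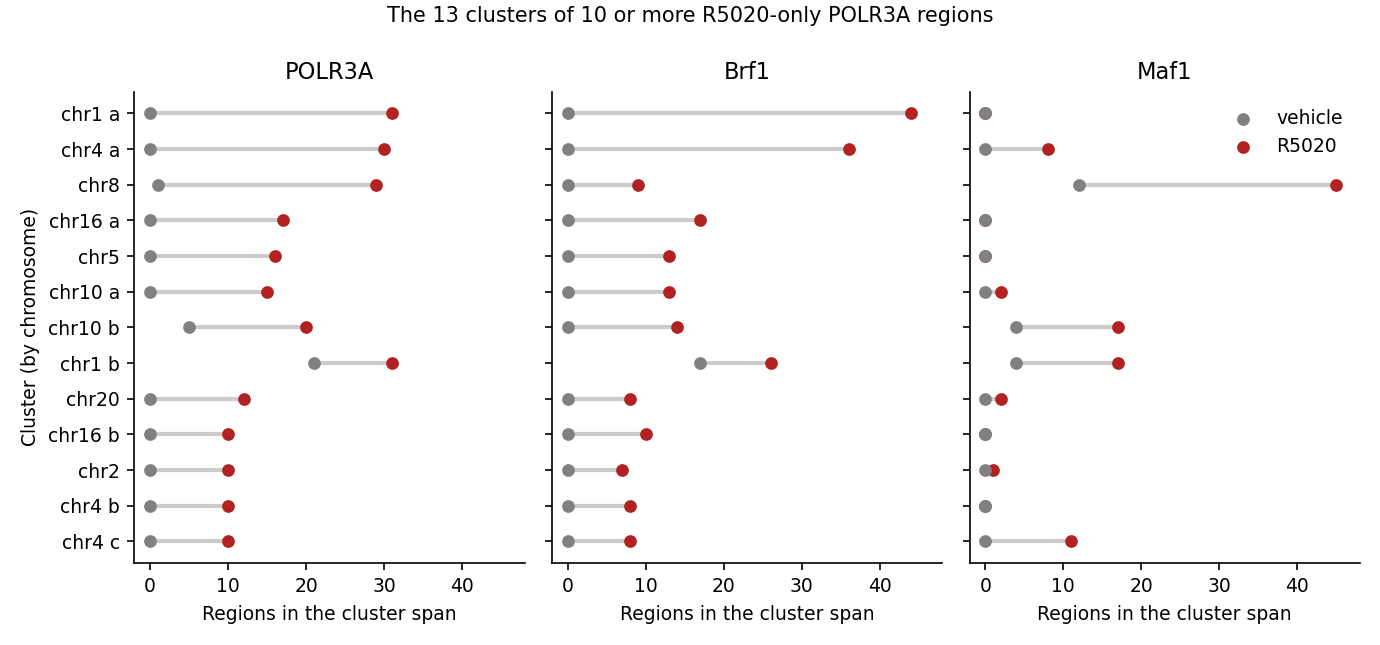
Number of regions of the vehicle list and of the R5020 list (x) in the span of each of the 13 clusters of 10 or more members (y, by chromosome and, where there are several, a letter), for POLR3A, Brf1 and Maf1. Summed over the 13 spans, POLR3A went from 27 to 241 regions, 217 of the 241 being the members by which the clusters were chosen. Brf1 went from 17 to 213 and Maf1 from 20 to 103. Where both points coincide only the vehicle point is seen.

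Over these 13 spans the other antibodies changed in number less or not at all: PR went from 17 to 9 regions, H3K27Ac from 59 to 76, POLR3C from 84 to 89 and POLR3G from 49 to 49, and POLR3GL had 0 under both. For POLR3A the increase follows from how the clusters were chosen and is not a separate result. Of the 241 R5020 regions in these spans, 217 are members, which have no vehicle counterpart by the rule. The whole PR list held 6605 regions with vehicle and 173078 with R5020, and the Maf1 list 3026 and 22590. The part of list length in these counts was not tested.

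Brf1 was the antibody found most often at members. With R5020 it overlapped 224 members (54.2%, interval 49.4 to 59.0%) and 401 shared regions (72.1%), with 64.5% over all. With vehicle it overlapped 0 members, which allows a share of up to 0.922% by the same interval, and 337 shared regions (60.6%), with 34.8% over all. At the shared regions 331 had Brf1 under both treatments. The R5020 Brf1 regions at members numbered 213, 19.9% of that list, with a median fold of 2.11, and 1 of them was also found with vehicle. At shared POLR3A regions there were 398 R5020 Brf1 regions with a median fold of 28.3, of which 326 were also found with vehicle. Members with Brf1 had a median POLR3A fold of 1.74 and those without 2.72. By -log10 q the order was reversed, with medians of 6.91 and 5.07. In the plot of overlap by antibody, Brf1 is the antibody for which the members move most between the vehicle and the R5020 panels.

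**Figure D5:**
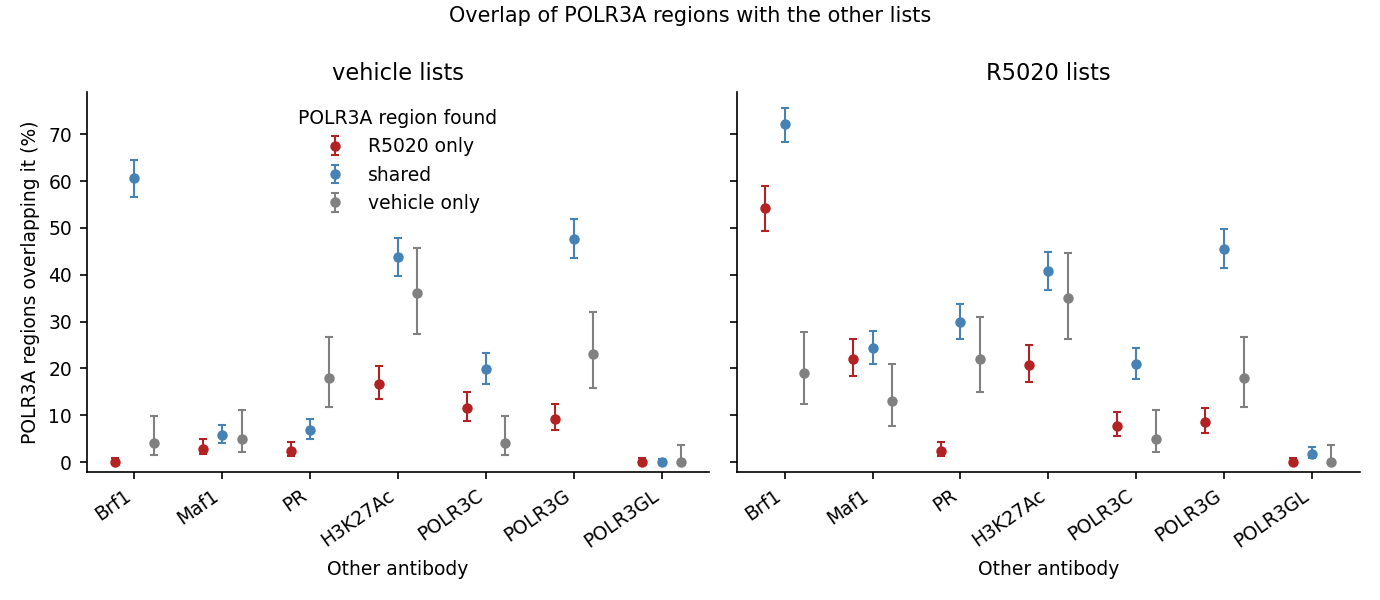
Share of POLR3A regions (y, %) that overlap a region of each other antibody (x), in the vehicle lists (left) and the R5020 lists (right); points are R5020-only, shared and vehicle-only POLR3A regions and bars are 95% Wilson intervals over regions. Brf1 at members went from 0 to 54.2%, and PR at members was 2.42% under both treatments.

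Maf1 overlapped 91 members with R5020 (22.0%, interval 18.3 to 26.3%) and 135 shared regions (24.3%), with 23.3% over all. The difference of -2.25 percentage points had an interval of -7.52 to 3.18 (Newcombe), which covers the counting of regions only. The settings of the members were not alike. Maf1 was at 23 of the 28 members near REXO1L genes, 19 of the 28 near DUX4-family genes and 22 of the 226 at the gene-free stretches. With vehicle Maf1 was at 12 members, with 4.54% over all. Of the members, 11 had Maf1 under both treatments, 80 with R5020 alone and 1 with vehicle alone. The Maf1 regions at members were low in their own list, with a median fold of 1.96, against 3.97 for those at shared regions. Both Maf1 and Brf1 were at members of the chr10 and chr4 DUX4 clusters. The combination of Maf1 with Brf1 and no other antibody, counted at members only, was found at 23 in all.

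PR was rare at members. With R5020 it overlapped 10 (2.42%, interval 1.32 to 4.40%) and 166 shared regions (29.9%), with 18.2% over all. The difference was -27.4 percentage points (-31.5 to -23.3). With vehicle it overlapped 10 members as well, with 4.95% over all, and 1 member had PR under both treatments. So 9 members had PR with R5020 alone and 9 with vehicle alone, although the R5020 PR list was far longer.

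The 10 members with R5020 PR were 8 solitary ones and 2 of the chr10 DUX4 cluster. The PR region with the highest fold among them, 56.4, covered the member chr15:74817721-74817897 in LMAN1L, whose POLR3A fold was 4.22. That member also overlapped Maf1, Brf1, H3K27Ac and POLR3G, 5 antibodies in all, the most of any member, and PR was there with vehicle too. The member chr1:22258233-22258406 lay under a PR region of fold 37.5 with Maf1, Brf1 and H3K27Ac, and its POLR3A fold was 5.27. Its Brf1 summit was 1 bp from that of POLR3A, and its PR summit was 718 bp away. RNA5SP74 shared 45 bp with a PR region of fold 36.7.

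The other 7 overlapped PR regions of lower fold. Near ECPAS, a proteasome scaffold gene, chr9:111485043-111485259 shared 73 bp with a PR region of fold 13.7. On chr3, chr3:13452263-13452514 overlapped a PR region of fold 5.47, and in LINC02935 chr10:112907988-112908150 shared 41 bp with one of fold 5.23. DUX4L29 and DUX4L10 had PR folds of 3.37 and 1.83, with PR summits 3 bp and 31 bp from those of POLR3A. In DHX32, an RNA helicase gene, the PR fold was 2.31 and the summits were 19 bp apart. The member chr17:43421674-43421906 shared only 2 bp with a PR region of fold 2.36. At 5 of the 10 the POLR3A summit lay inside the PR region.

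H3K27Ac overlapped 86 members with R5020 (20.8%) and 227 shared regions (40.8%), with 32.3% over all, and 69 members with vehicle (16.7%), with 32.2% over all. Of the members, 60 had it under both treatments, 26 with R5020 alone and 9 with vehicle alone. Thus most members with the mark had it with vehicle too, where POLR3A was not listed. The R5020 H3K27Ac regions at members were low in their own list, with a median fold of 2.55, against 8.44 for those at shared regions. POLR3C was at 32 members with R5020 (7.75%, 15.3% over all) and at 48 with vehicle (11.6%, 16.3% over all). POLR3G was at 35 with R5020 (8.47%, 29.7% over all) and at 38 with vehicle (31.3% over all). POLR3GL was at 0 members under both, with 1.03% over all with R5020 and 0% with vehicle. POLR3C, unlike Brf1, was thus listed at more members with vehicle than with R5020, with 21 under both, and 2 of its 3 R5020 libraries have the conflicting treatment tag. The R5020 POLR3C and POLR3G regions at members were also low in their own lists, with median folds of 1.90 and 2.23. For those at shared regions the medians were 3.82 and 4.56.

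Taken by combination in the R5020 lists, 152 members had Brf1 and no other antibody (36.8%), 105 had none (25.4%), 22 had Maf1 alone and 15 H3K27Ac alone. Combinations were counted at members only. The counts in this paragraph thus have no share over all R5020 regions beside them and show nothing particular to members. There were 37 members with 3 or more antibodies, of which 7 lay in the 5S array, 10 in the chr10 DUX4 cluster and 4 in the chr4 one. On chr17, between 26619505 and 26884314, 4 members had Brf1 and H3K27Ac together with POLR3C, POLR3G or Maf1, and H3K27Ac, POLR3C and POLR3G were all at these 4 with vehicle. Of 3 neighbouring members on chr7, the first, chr7:56370508-56371006, had Maf1, Brf1, H3K27Ac and POLR3G.

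The 106 members placed elsewhere had a median fold of 3.07 (1.48 to 6.50) and a median -log10 q of 4.89, and 45 of them were in clusters. H3K27Ac was at 34 (32.1%, interval 24.0 to 41.5%), and at 12 of these with R5020 alone. Maf1 was at 26 (24.5%), Brf1 at 24 (22.6%) and PR at 7 (6.60%, interval 3.24 to 13.0%). Over all R5020 regions the shares were 32.3% for H3K27Ac, 23.3% for Maf1, 64.5% for Brf1 and 18.2% for PR. This remainder still holds clusters. Brf1 was at 7 of 10 members in the immunoglobulin kappa locus, 6 of 6 near the chr18 end and 4 of 12 in the chr20 cluster. The Brf1 share at the gene-free stretches was 74.8%, and 189 of the 226 members there were in clusters. The member with the highest fold, 6.50, was chr8:138803392-138803534 in COL22A1, a collagen gene, and it overlapped no other antibody.

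Of all 58415 genes, 256 (0.438%) had a member within 10 kb and 1064 (1.82%) a shared region. Of 13 progestin-responsive genes, 0 had a member and 1, PER1, a circadian clock gene, had a shared region. Of 30 genes of the polymerase III machinery, 0 had a member and 1, POLR3E, a subunit gene, had a shared region. At these shares over all genes, lists this short say nothing particular about the members.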

How the data were processed

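ChIP-seq of 8 antibodies in T47D cells was used as 16 lists of regions, 1 per antibody and treatment. Per the submitters' processing notes, cutadapt, Bowtie2, MACS2 and hg38 were used. How the 3 libraries and the inputs were combined, and how reads with several matches in the genome were treated, is not given in the sources used here. Each region carries the authors' fold enrichment (a ratio), the authors' -log10 q and the authors' summit offset, as deposited.

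From these lists, overlaps of at least 1 bp, distances, medians, and 95% Wilson and Newcombe intervals were computed with Python 3.11.15, pandas 2.3.3 and scipy 1.17.1; the overlap routines were tested on simulated data. No test across conditions was possible with 1 list per treatment. Genes came from RefSeq's table for GRCh38.p14 (58415 used, and 679 entries of scaffolds and patches left out). No genome was used, so repeats and base composition of the members were not analysed here. The printed sequences cover 3 members. An A box was searched on both strands as its degenerate consensus.

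Regions named were the 10 members of highest -log10 q, the 5 of highest fold, those within 200 bp of polymerase III genes, those with R5020 PR, examples of those with 3 or more antibodies, and those nearest the edge of the rule. Members named in the text for their sequence, the pseudogenes, the settings, the gene-free stretches and their 2 Mb window were chosen after the values were seen. The members and gene lists were chosen with earlier results of these data known. Alternatives covered the -log10 q minimum, the overlap and distance rules, the chr21 stretch, equal list lengths and solitary members.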

Additional observations from a re-analysis of the deposited data

Results flagged for a closer look

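Outside chromosomes 1 to 22 and X the R5020 POLR3A list held 227 regions, of which 212 shared no base with a vehicle region, against 39 regions in the whole vehicle list there. In the stretch of chr21 from 8150001 to 8500000 the R5020 list held 50 regions, of which 32 shared no base with any of the 33 vehicle regions. Neither set is used in the comparisons above.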

How the results depend on the processing

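The number of R5020-only regions was 413, and 258 with a -log10 q of at least 5, 112 with solitary members only and 150 when the 655 regions of highest -log10 q were taken from each list. With a -log10 q of at least 5 the R5020 Brf1 share went from 54.2 to 62.4%. Among solitary members the shares were 25.0% for Brf1, 17.9% for Maf1, 7.14% for PR, 34.8% for H3K27Ac, 4.46% at polymerase III genes and 24.1% over 100 kb from any gene. With the summit required inside the other region PR fell to 1.21%. Counting other regions within 1 kb gave 29.8% for Maf1, 62.2% for Brf1 and 26.6% for H3K27Ac, and a -log10 q of at least 5 in the other list gave 14.0% for Maf1 and 16.7% for H3K27Ac. Within 1 kb of polymerase III genes lay 4.60%. The share far from genes was 43.8% at 50 kb and 16.0% at 500 kb, and the clustered share 80.1% at 500 kb. The share near gene-free stretches, whose alternatives were chosen after seeing the data, was 48.4% at 1 Mb, 65.9% at 5 Mb, 60.9% with a -log10 q of at least 5 and 35.7% among solitary members. The other 30 alternatives of these results stayed within the interval of the value reported, or within 1.5 times for the count. For the vehicle overlaps, POLR3C, POLR3G, POLR3GL and the medians there were 82 further alternatives, of which 23 moved. Counting vehicle Brf1 regions within 1 kb gave 14 members (3.39%). Without members that had a vehicle POLR3A region within 1 kb, the R5020 shares were 5.13% for POLR3C and 5.38% for POLR3G.

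No paired analysis was possible because each list pools its libraries and numbers none of them. The depth of the libraries is unknown, so a region missing from the vehicle list is a region not listed there, and an absence of binding cannot be told apart from too few reads. With a weak median fold, membership depends on the list thresholds. Regions are not replicates, and the intervals do not cover the spread between libraries.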
